A study of Homo sapiens with 9 samples.

Results

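G9a is the histone methyltransferase encoded by EHMT2. It works as a pair with the related enzyme GLP, encoded by EHMT1, and places mono- and dimethyl marks on lysine 9 of histone H3, a modification linked to gene silencing. The zinc finger proteins WIZ and ZNF644 bind the pair and help bring it to chromatin. Hairpin RNAs are processed by the small RNA machinery of the cell and lower the mRNA that they match, and separate hairpins against the same mRNA usually differ in how far they lower it and in which other transcripts they touch.

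The comparison set 1 hairpin against EHMT2, shG9a_4, against another, shG9a_1. It used 6 of the 9 libraries of the series, 3 for each hairpin, chosen by the sample titles. MCF10A is an immortalised, non-tumorigenic line of human breast epithelial cells. All 6 cultures, like the 3 with the scrambled hairpin shSCR, carried ectopic MYC and PI3K with the H1047R change, an activating change in the kinase subunit. Each hairpin sat in a doxycycline-inducible vector, and 2 µg/mL doxycycline was given for 72 hours. Total RNA without ribosomal RNA was sequenced with strand information and paired reads of 75 bases. The 3 shSCR libraries entered no test here and their levels are given for reference only. The labels name a pool or clone for none of the lines, and the design text calls the replicates biological without saying what a replicate number shares. A difference between the hairpins holds the depth of the knockdown and any other effect of each hairpin together, and these cannot be told apart in this design.

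The 6 libraries held 53583483 to 76958831 reads in genes and detected 26922 to 28017 genes with at least 1 read. Levels are given in CPM, the count of a gene scaled by the reads in genes of its library. A log2 fold change is positive where the gene was higher in shG9a_4, its SE is that of the fit, and adjusted p-values are from edgeR's quasi-likelihood test with the replicate number as a block and Benjamini-Hochberg adjustment over all 17866 genes tested, with a threshold of 0.05. A pair is the shG9a_1 and the shG9a_4 library of 1 replicate number.

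Pair n2 stood apart from the others. Over the 9104 genes with a mean of at least 10 CPM, the within-pair log2 differences of pairs n1 and n3 correlated at r = 0.55, those of n1 and n2 at −0.32 and those of n2 and n3 at −0.07 (across genes, which are not independent replicates). The SD of the differences was 0.268 in pair n2, against 0.170 in n1 and 0.156 in n3. Differences moved with base composition: over 9081 of these genes with an annotated transcript, the correlation with the GC content of the longest transcript was −0.72 in pair n2, 0.50 in n1 and 0.26 in n3. In pair n2 the median difference was −0.24 in the most GC-rich tercile of genes and 0.10 in the least GC-rich tercile. By library, the deviation from the mean over the 6 libraries correlated with GC at −0.72 in shG9a_4 n2 and at −0.40 in shG9a_1 n1, and at 0.25 to 0.48 in the other libraries. After a correction for GC in each library, the correlations between pairs were 0.25 (n1 and n2), 0.50 (n1 and n3) and 0.25 (n2 and n3). Counts of gene groups below are therefore also given without replicate 2, a fit that leaves 1 residual degree of freedom, and from a fit with GC correction that was added after the data were seen. Replicate 2 was picked for this from these same values, which leaves the pairs that agreed best, so those counts are no independent check. Genes past the threshold numbered 1315 without replicate 2, 95 without replicate 1 and 0 without replicate 3. Counts of groups without replicate 1 or 3 are not given. The library shG9a_4 n3 had the highest share of reads outside annotated genes, 15.4%, and of mitochondrial transcripts, 0.887%, against lowest shares of 12.2% and 0.566% among the 6; the part of these shares in the results was not tested.

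**Figure D1:**
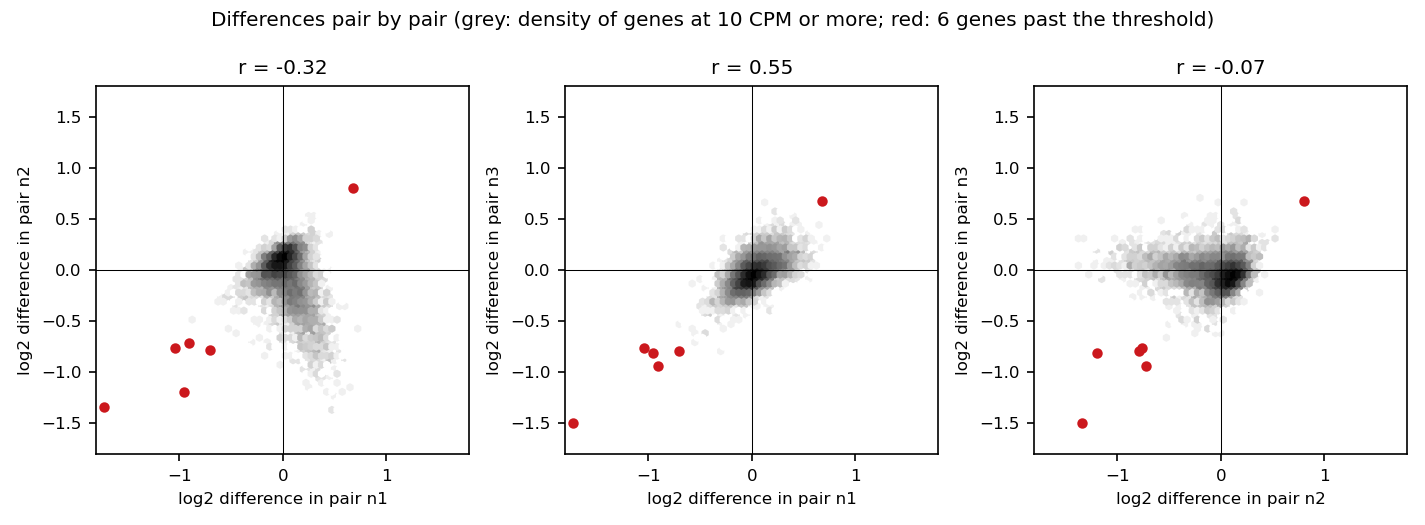
Within-pair log2 differences, shG9a_4 minus shG9a_1, of 1 pair against another. Grey hexagons show the density of genes with a mean of at least 10 CPM, on a log colour scale, and red points the 6 genes past the threshold, of which KRT34 lies below 10 CPM. The cloud rises to the right for pairs n1 and n3 (r = 0.55) and not for the panels with pair n2 (r = −0.32 and −0.07), while 5 red points lie on the lower side and 1 on the upper side in all pairs.

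The hairpins' own target was the first check. EHMT2 (ENSG00000204371.11) was at 17.2, 22.8 and 20.8 CPM in shG9a_1 n1 to n3 and at 31.7, 27.0 and 34.1 CPM in shG9a_4, against 47.6 ± 3.30 CPM (SD, n = 3) in shSCR. All 3 shG9a_4 libraries lay above all 3 shG9a_1 libraries, and the gap was narrowest in pair n2. The means of 20.3 ± 2.81 and 31.0 ± 3.60 CPM (SD, n = 3 each) were 42.6% and 65.1% of the shSCR mean. The log2 fold change was 0.60 (SE 0.13, unadjusted p = 0.00217), which did not pass the threshold over all genes (edgeR adjusted p = 0.382). The within-pair differences were 0.91, 0.23 and 0.66 on the log2 scale. Without replicate 2 the log2 fold change was 0.77 and with GC correction 0.65, and both passed (edgeR adjusted p = 6.22e-11 and 0.00177). It was 0.44 without replicate 1 and 0.57 without replicate 3, and neither passed (edgeR adjusted p = 0.227 and 0.9996). By mean mRNA level EHMT2 was lower in shG9a_1 than in shG9a_4, without a call in the main fit. The text calls the groups by their hairpin names only.

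The partners of G9a showed no called difference in the main fit. EHMT1 had a log2 fold change of −0.04 (SE 0.11) and WIZ of −0.19 (SE 0.22), and in both the sign in pair n2 was opposite to that in n1 and n3. ZNF644 was at 154, 145 and 134 CPM in shG9a_1 and at 126, 141 and 113 CPM in shG9a_4, with a log2 fold change of −0.20 (SE 0.07, edgeR adjusted p = 0.582). Its groups overlapped. The transgenes of the model were near even, with log2 fold changes of −0.01 (SE 0.10) for MYC and −0.02 (SE 0.06) for PIK3CA, in counts that cannot separate an ectopic copy from the endogenous gene. Of 19 tested genes of the G9a complex and of other H3K9 methyltransferases, 0 were higher and 1, ZNF644, was lower at an unadjusted p under 0.05. Among all genes 2.85% were higher and 4.25% lower at that level. Without replicate 2 and with GC correction alike, 0 passed the threshold upward and 1, again ZNF644, downward. Among all genes 3.82% passed upward and 3.62% downward without replicate 2, and 0.432% and 1.03% with GC correction. Such counts are no result about the complex.

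Across the transcriptome, 6 of 17866 genes tested passed the threshold, 0.0336%, of which 1 was higher and 5 were lower in shG9a_4. An unadjusted p under 0.05 was reached by 509 genes higher in shG9a_4, 2.85%, and by 760 lower, 4.25%. The 3 shG9a_4 libraries all lay above the 3 shG9a_1 libraries for 1094 genes, 6.12%, and all below for 655, 3.67%. The median log2 fold change was −0.01 and the median SE 0.122. The calls depended on the fit. In edgeR, 0 genes passed without the replicate block (680 at an unadjusted p under 0.05), with all 9 libraries and the block (1592), with all 9 libraries and no block (731), with a filter of 1 CPM in 3 libraries (974) and without replicate 3 (651), while DESeq2 with the block called 83. Without replicate 2, 1315 genes passed, 675 higher (3.82%) and 640 lower (3.62%). With GC correction 258 passed, 76 higher (0.432%) and 182 lower (1.03%), and all 6 genes were among both sets.

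**Figure D2:**
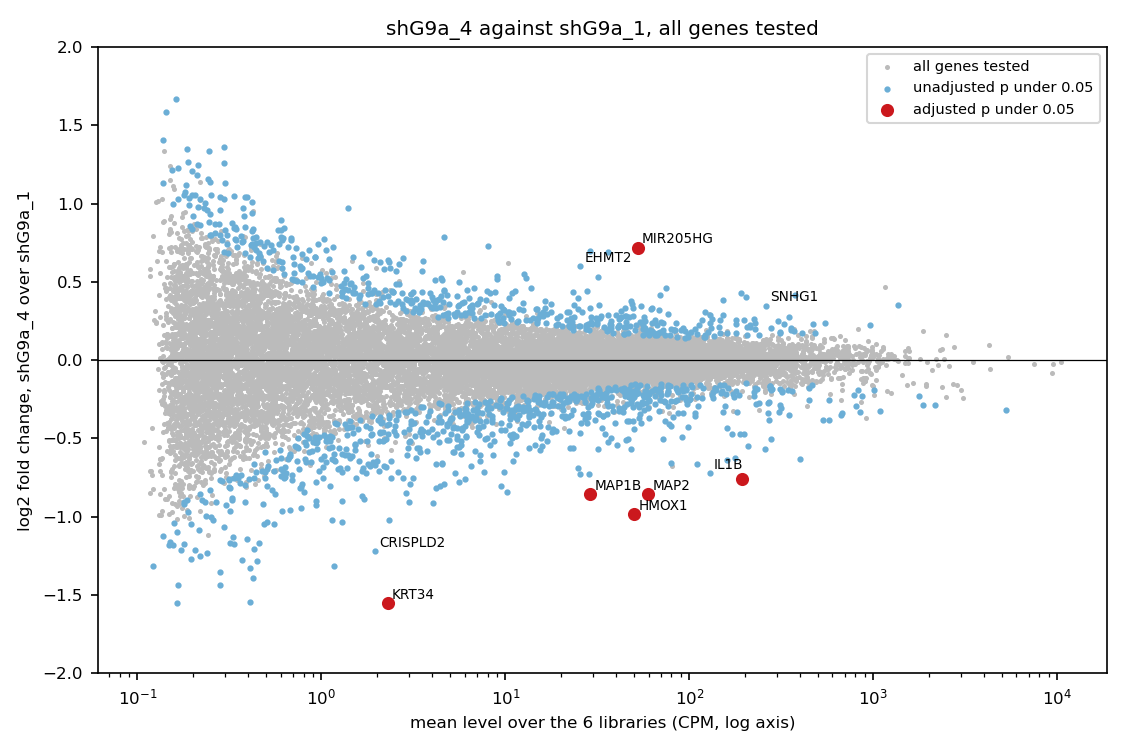
Log2 fold change of shG9a_4 over shG9a_1 against the mean level over the 6 libraries in CPM, on a log axis, for the 17866 genes tested. The 6 genes past the threshold are red, genes with an unadjusted p under 0.05 blue and the rest grey; KRT34 lies lowest of the red points at −1.55 and MIR205HG is the only red point above 0, at 0.72.

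Among the genes lower in shG9a_4 than in shG9a_1 were an enzyme of heme breakdown, a pair of microtubule-binding proteins and a keratin. These 4 genes are described here. HMOX1 (ENSG00000100292.16) encodes heme oxygenase 1, which breaks down heme and is a classical target of the oxidative stress factor NRF2. Its levels were 87.6, 31.2 and 77.8 CPM in shG9a_1, set beside 44.5, 13.8 and 46.2 CPM in shG9a_4, against 26.7 ± 8.15 CPM in shSCR (SD, n = 3). Replicate n2 was low in both groups, so the groups overlapped while all 3 pairs differed in the same direction. The log2 fold change was −0.98 (SE 0.09, edgeR adjusted p = 0.0399).

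MAP2 (ENSG00000078018.19) and MAP1B (ENSG00000131711.14) encode proteins that bind and stabilise microtubules and are best known from neurons. MAP2 was at 64.7, 44.6 and 119 CPM in shG9a_1 and at 30.8, 26.7 and 72.7 CPM in shG9a_4. Replicate n3 was the highest of each group, and the groups overlapped. The log2 fold change of MAP2 was −0.86 (SE 0.08, edgeR adjusted p = 0.0399), and its shSCR level was 50.9 ± 30.7 CPM (SD, n = 3). MAP1B was at 28.4, 32.5 and 50.1 CPM in shG9a_1 and at 14.9, 20 and 27.2 CPM in shG9a_4. All shG9a_4 libraries lay below all shG9a_1 libraries, and the log2 fold change was −0.85 (SE 0.08, edgeR adjusted p = 0.0399). The shSCR level of MAP1B was 22.1 ± 7.12 CPM (SD, n = 3). Of the 9 neural markers, MAP2 among them, RBFOX3 and OLIG2 had no read in any of the 6 libraries and SYP reached at most 0.609 CPM. SNAP25 was at 1.90 to 2.83 CPM and TUBB3 at 0.961 to 1.33 CPM. Their log2 fold changes were −0.23 and 0.06, neither at an unadjusted p under 0.05. MBP was at 17.8 to 26.6 CPM with a log2 fold change of 0.21, higher in all 3 pairs (unadjusted p = 0.0356, edgeR adjusted p = 0.654). The summed level of the 9 was 66.6 to 147 CPM in shG9a_1 and 51.1 to 104 CPM in shG9a_4, of which MAP2 itself gave 44.6 to 119 and 26.7 to 72.7 CPM.

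KRT34 (ENSG00000131737.5), a type I keratin of the hair shaft, had the largest fold change of the 5 genes described, at the lowest level of them. It was at 3.84, 2.57 and 3.82 CPM in shG9a_1 and at 1.12, 1.01 and 1.38 CPM in shG9a_4, against 1.37 ± 0.463 CPM in shSCR (SD, n = 3). The groups did not overlap. The log2 fold change was −1.55 (SE 0.15, edgeR adjusted p = 0.0399). Hair keratin genes resemble each other closely and only uniquely placed reads were counted, so this level is uncertain.

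MIR205HG (ENSG00000230937.9), the long RNA that hosts the microRNA miR-205, was the 1 gene past the threshold that was higher in shG9a_4. It was at 29.1, 30.6 and 58.2 CPM in shG9a_1 and at 45.8, 54.0 and 96.7 CPM in shG9a_4. Replicate n3 was highest in each group and the groups overlapped, with a difference of the same sign in all 3 pairs. The log2 fold change was 0.72 (SE 0.07, edgeR adjusted p = 0.0399), and the shSCR level was 39.6 ± 23.7 CPM (SD, n = 3). miR-205 is abundant in basal breast epithelium and is known to repress ZEB1 and ZEB2, factors that promote the mesenchymal state. Reads of total RNA do not measure the mature microRNA, whose arms are shown for reference, from RefSeq on GRCh38.p14, 5′ to 3′ with the seed (bases 2 to 8) in capitals.
hsa-miR-205-5p, chr1:209432166-209432187, plus strand: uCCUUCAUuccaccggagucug
hsa-miR-205-3p, chr1:209432203-209432223, plus strand: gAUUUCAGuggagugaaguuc

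**Figure D3:**
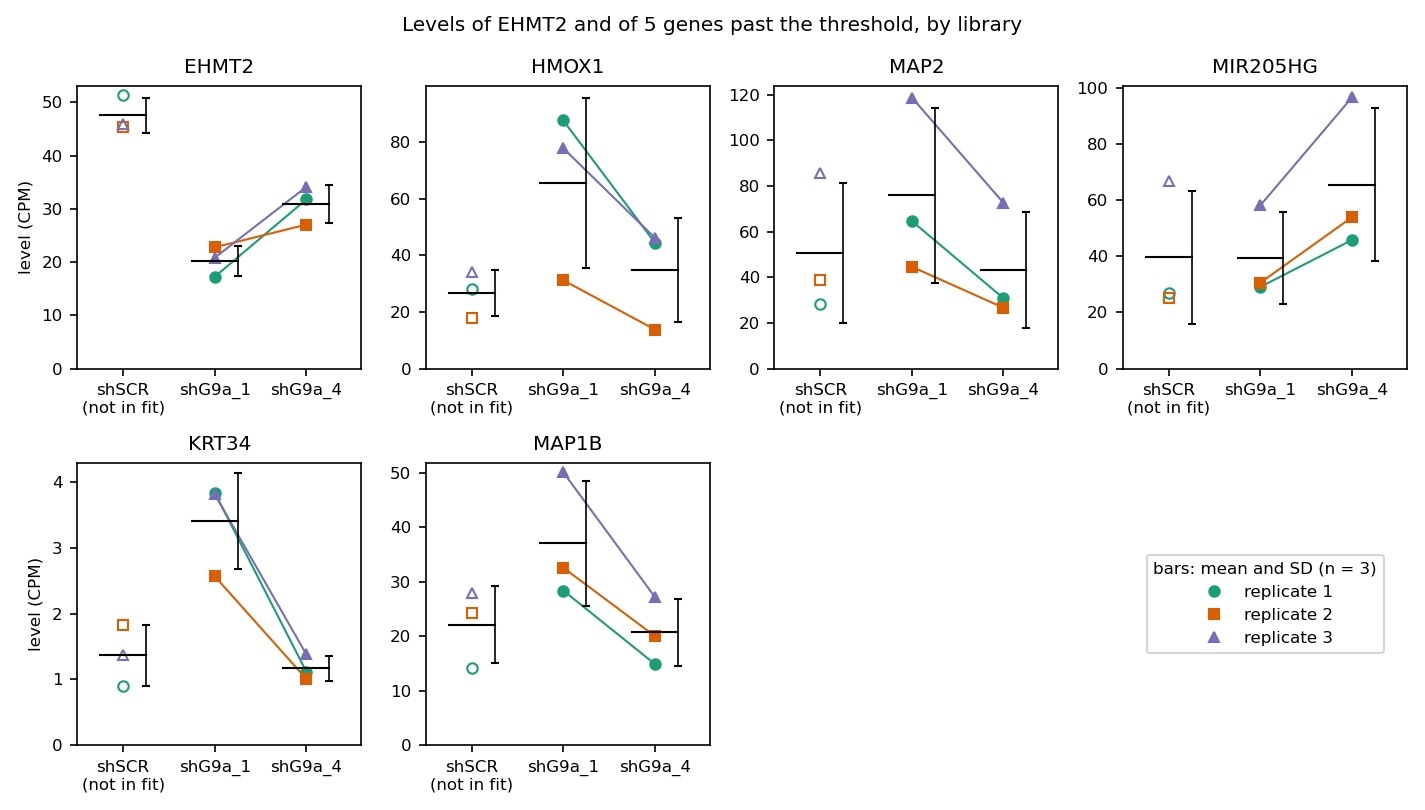
Levels in CPM of EHMT2 and of 5 genes past the threshold in the 3 libraries of each hairpin and, as open symbols, of shSCR, which was not in the fit. Colours and shapes mark the replicate number, lines join the libraries of a pair, and black bars give the mean and SD (n = 3); each pair moves the same way within a gene, upward for EHMT2 and MIR205HG and downward for the other 4.

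RefSeq's promoter table on GRCh38.p14, from 250 bases before to 50 after a transcript start, held 4 of the 6 genes, with 7 starts. These were MAP2, MAP1B, KRT34 and MIR205HG. HMOX1 was not among them, so its promoter was not searched for any motif. The stretches of MIR205HG and KRT34 are given 5′ to 3′ on the strand of the gene, because these genes had the only upward change and the largest downward one, with TATAAA in capitals.
MIR205HG, chr1:209428570-209428869, plus strand: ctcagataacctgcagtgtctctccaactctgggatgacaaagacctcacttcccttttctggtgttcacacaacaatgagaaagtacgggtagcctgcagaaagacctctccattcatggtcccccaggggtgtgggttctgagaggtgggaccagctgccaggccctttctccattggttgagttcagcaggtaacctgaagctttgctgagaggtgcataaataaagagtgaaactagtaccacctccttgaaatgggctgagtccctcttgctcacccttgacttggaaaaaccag
KRT34, chr17:41382257-41382556, minus strand: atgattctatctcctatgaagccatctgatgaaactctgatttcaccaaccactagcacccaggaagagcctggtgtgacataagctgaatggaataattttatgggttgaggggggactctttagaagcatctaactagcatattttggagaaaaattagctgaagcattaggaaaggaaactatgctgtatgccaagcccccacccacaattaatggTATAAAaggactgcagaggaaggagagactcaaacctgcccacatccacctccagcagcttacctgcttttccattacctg

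On both strands, 5 motifs were searched first: TGANTCA (AP-1), TGACNNNGC (NRF2), CACGTG (E-box), GGAATG (TEAD) and the NF-kB motif. TATAAA was added after their matches had been seen. TATAAA was found at 3 of the 7 starts, in KRT34 and at both starts of MAP1B, and in 11.5% of the 35116 promoters of the table. GGAATG was found at 1 start of MAP1B, and in 14.03% of all promoters. The other 4 motifs were at none of the 7 starts, and were in 7.71% (TGANTCA), 13.3% (TGACNNNGC), 7.26% (CACGTG) and 1.61% (the NF-kB motif) of all promoters. No matches of different motifs overlapped at these starts, and a match is a description of letters only.

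Genes next in order of p did not pass the threshold and are given as values. CCDC80, a secreted matrix protein, was at 74.7, 93.1 and 123 CPM in shG9a_1 and at 47.1, 65.5 and 73.2 CPM in shG9a_4, without overlap. Its log2 fold change was −0.66 (edgeR adjusted p = 0.087). DKK1, a secreted inhibitor of Wnt signalling, had −0.57 (0.0912), CRISPLD2, a secreted protein, −1.22 (0.129), and AOX1, an aldehyde oxidase, −0.66 (0.172), each followed by its edgeR adjusted p. In the upward direction EPCAM, the epithelial cell adhesion molecule, was at 23.9, 16.05 and 44.4 CPM in shG9a_1 and at 40.6, 29.02 and 62.6 CPM in shG9a_4. Replicate n3 was the highest of each group, the groups overlapped, and the log2 fold change was 0.69 (edgeR adjusted p = 0.172). FGFBP1, a carrier of fibroblast growth factors, had 0.70 (0.230), FAT2, an atypical cadherin, 0.53 (0.302), and DYNLT2, a dynein light chain family member, 0.64 (0.338). The desaturase SCD had 0.42 (0.340), the transcription factor ZHX1 0.38 (0.264) and NCR3LG1, a ligand of a natural killer cell receptor, 0.41 (0.252).

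**Figure D4:**
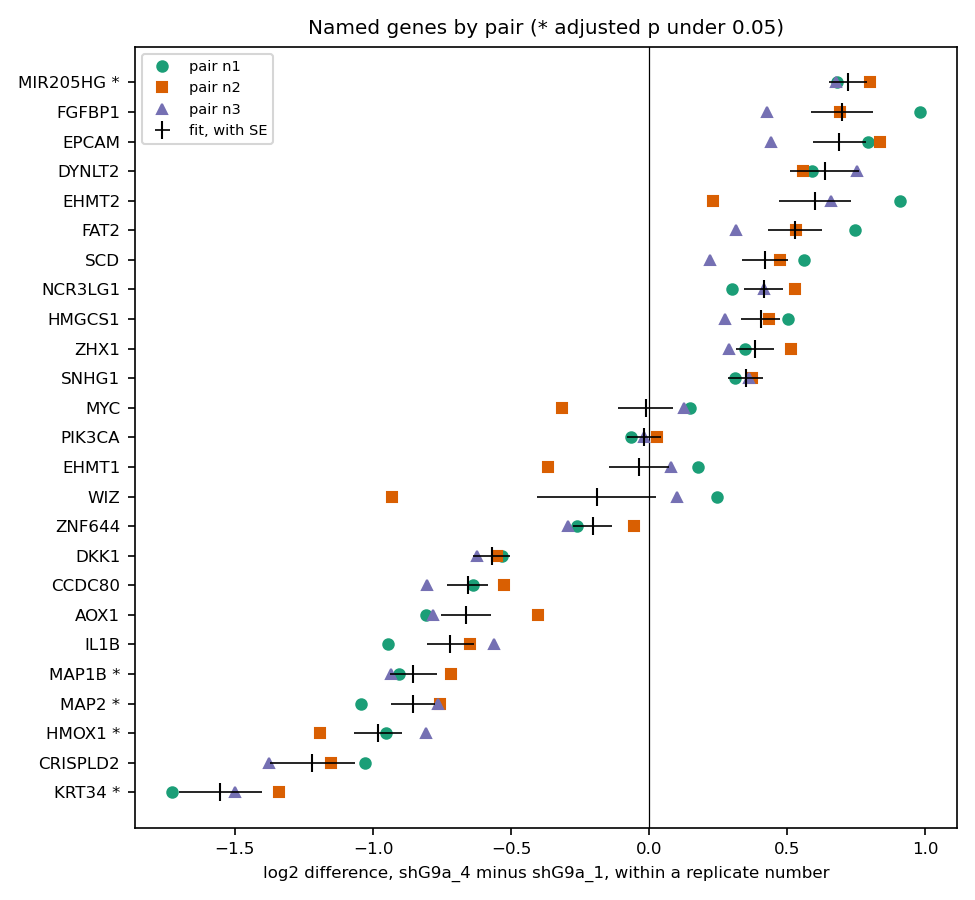
Log2 difference of shG9a_4 minus shG9a_1 in each pair (coloured symbols) and in the fit with its SE (black), for 25 genes named by rule, ordered by the fit; an asterisk marks the 5 of them with an adjusted p under 0.05. These 5 genes were named by a rule that asks for the same direction in all 3 pairs. WIZ, EHMT1, MYC and PIK3CA, to which that condition was not applied, have pair n2 on the other side of 0.

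Gene groups were described from lists of known members by counts at an unadjusted p under 0.05, to be read against 2.85% (higher) and 4.25% (lower) of all genes tested, with their median log2 fold change against −0.01 for all genes. Members that passed the adjusted threshold in the other fits are to be read against 3.82% (higher) and 3.62% (lower) of all genes without replicate 2, and 0.432% and 1.03% with GC correction. These counts are no test of a list.

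Matrix and mesenchymal genes were mostly lower in shG9a_4: of 54 tested, 21 were lower and 1 was higher at an unadjusted p under 0.05, with a median of −0.18. Medians were −0.10, −0.23 and −0.19 in pairs n1 to n3. CCN1, a matricellular protein, was at 94.6, 91.2 and 65.9 CPM in shG9a_1 and at 62.4, 71.6 and 45.9 CPM in shG9a_4 (log2 fold change −0.51, edgeR adjusted p = 0.172). Fibronectin, FN1, was at 316, 678 and 430 CPM in shG9a_1 and at 202, 544 and 234 CPM in shG9a_4 (−0.63, edgeR adjusted p = 0.264). Replicate n2 was the highest of each group for FN1, and the groups overlapped for both genes. FBN1, fibrillin 1, had a log2 fold change of −0.56 (edgeR adjusted p = 0.338). Without replicate 2, 19 members passed downward and 2 upward, against 3.62% and 3.82% of all genes. With GC correction 12 passed downward and 0 upward, against 1.03% and 0.432% of all genes. The 11 fibroblast markers were mixed in level. COL1A2 was at 0 to 0.148 CPM, COL3A1 at 0.016 to 0.346 CPM and THY1 at 0.026 to 0.134 CPM. Decorin, DCN, was at 137 to 412 CPM, S100A4 at 92.3 to 128 CPM, FAP at 18.5 to 34.3 CPM, PDPN at 11.9 to 17.7 CPM and LUM at 2.93 to 7.62 CPM. Their summed level was 367 to 576 CPM in shG9a_1 and 296 to 579 CPM in shG9a_4, and 2 of the 7 tested were lower and 0 higher at an unadjusted p under 0.05. Without replicate 2, 4 of them passed downward, and with GC correction 1 did. The part of these markers in the matrix counts was not tested. Of 4 adipocyte markers tested 2 were lower at an unadjusted p under 0.05, FABP4 (log2 fold change −0.65, edgeR adjusted p = 0.457) and CIDEC (−0.67, 0.404), while LEP had no read. All 4 had negative log2 fold changes, against 52.1% of all genes. Their median was −0.66, with pair medians of −0.34, −0.84 and −0.75. PLIN1 was at 0.173 to 0.698 CPM and LPL at 0.282 to 1.25 CPM. Without replicate 2, 2 adipocyte markers passed downward, and with GC correction 0 did.

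Among targets of NF-kB, the factor that drives inflammatory genes, 14 of 34 tested were lower and 0 higher at an unadjusted p under 0.05, with a median of −0.22. None passed the threshold. The cytokine IL1B was at 233, 156 and 96.8 CPM in shG9a_1 and at 119, 100.3 and 68.1 CPM in shG9a_4 (log2 fold change −0.72, edgeR adjusted p = 0.0912). IL1A was at 443, 260 and 224 CPM in shG9a_1 and at 253, 200.4 and 163 CPM in shG9a_4 (−0.56, edgeR adjusted p = 0.210). For both cytokines n1 was highest in each group and the groups overlapped. The chemokines CXCL3 and CCL20 had log2 fold changes of −0.54 and −0.47 (edgeR adjusted p = 0.338 and 0.382). The list's medians were −0.32, −0.07 and −0.20 in pairs n1 to n3. Without replicate 2, 18 members passed downward, and with GC correction 7 did. In the IL-1 family, a list written after values had been seen, 4 of 10 tested were lower and 1 was higher at an unadjusted p under 0.05. IL1A and IL1B are in this list and in the NF-kB list. The higher one was the co-receptor IL1RAP, at 46.9, 39.5 and 39.4 CPM in shG9a_1 and at 54.3, 58.4 and 52.1 CPM in shG9a_4 (log2 fold change 0.38, edgeR adjusted p = 0.382), while the signalling receptor IL1R1 had −0.22 (0.532). Without replicate 2 and with GC correction alike, 4 of the family passed downward and 1 upward. Of 13 leukocyte markers 1 was high enough to be tested, CD14, at 1.87 to 6.28 CPM (log2 fold change 0.13, edgeR adjusted p = 0.959), and PTPRC and CD3E were at 0 to 0.0746 CPM. The summed level of the leukocyte markers was 2.30 to 6.65 CPM in shG9a_1 and 3.20 to 5.04 CPM in shG9a_4, and its part in the inflammatory counts was not tested.

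Targets of NRF2, the factor that induces antioxidant and detoxifying enzymes, were lower in 12 of 28 tested and higher in 0 at an unadjusted p under 0.05. Their median was −0.16, with pair medians of −0.13, −0.25 and −0.15. HMOX1 was the 1 member past the threshold. The quinone reductase NQO1 was at 1533, 806 and 1300.1 CPM in shG9a_1 and at 1199, 665 and 1064 CPM in shG9a_4 (log2 fold change −0.32, edgeR adjusted p = 0.404). Replicate n2 was lowest in each group, as for HMOX1, and the groups overlapped. The aldo-keto reductases AKR1C1 and AKR1C3 had −0.63 and −0.35 (edgeR adjusted p = 0.174 and 0.382), but these genes are near copies of each other and their separate counts are uncertain. Without replicate 2, 11 members passed downward, and with GC correction 6 did. Lysosome and autophagy genes, a list that shares SQSTM1 with the NRF2 list, had 8 of 45 lower and 0 higher at an unadjusted p under 0.05, with a median of −0.08; the protease CTSB had −0.27 (edgeR adjusted p = 0.409). Without replicate 2, 5 of these passed downward and 3 upward, and with GC correction 2 passed downward and 0 upward.

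Enzymes and regulators of cholesterol synthesis were higher in shG9a_4: 10 of 24 tested at an unadjusted p under 0.05, with 0 lower. The median was 0.15, with pair medians of 0.27, 0.16 and 0.09. None passed the threshold. HMGCS1, which makes HMG-CoA, was at 126, 170 and 230 CPM in shG9a_1 and at 176, 232 and 289 CPM in shG9a_4 (log2 fold change 0.40, edgeR adjusted p = 0.252). Levels in both groups were lowest in n1 and highest in n3, so the groups overlapped although each pair differed in the same direction. INSIG1, a sterol-responsive regulator, had 0.43 (edgeR adjusted p = 0.382) and HSD17B7, an enzyme of a later step, 0.28 (0.503). Without replicate 2, 9 members passed upward, and with GC correction 7 did.

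Host genes of small nucleolar RNAs, a list written after values had been seen, were higher in all 20 tested, against 47.9% of all genes. At an unadjusted p under 0.05, 10 were higher and 0 lower, and the median was 0.20. SNHG1 was at 233, 218 and 234 CPM in shG9a_1 and at 284, 285 and 313 CPM in shG9a_4, without overlap (log2 fold change 0.35, edgeR adjusted p = 0.264). SNHG4 had 0.32 (0.409), TAF1D 0.22 (0.525) and SNHG3 0.25 (0.526). For 11 of the 20, all shG9a_4 libraries lay above all shG9a_1 libraries, against 6.12% of all genes. Without replicate 2, 10 passed, and with GC correction 1 did.

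Epithelial junction genes had 5 of 27 tested higher and 1 lower at an unadjusted p under 0.05, with a median of 0.11. Besides EPCAM, the desmosomal cadherin DSC3 was at 65.6, 54.7 and 61.0 CPM in shG9a_1 and at 75.3, 76.3 and 76.4 CPM in shG9a_4, without overlap (log2 fold change 0.32, edgeR adjusted p = 0.389). E-cadherin, CDH1, was at 15.8, 14.8 and 41.5 CPM in shG9a_1 and at 22.7, 22.9 and 48.9 CPM in shG9a_4 (0.44, edgeR adjusted p = 0.390). Its n3 libraries were the highest of both groups, and the groups overlapped. The splicing factor ESRP1 had 0.51 (edgeR adjusted p = 0.404). The lower member, the tight junction gene CLDN1, had −0.34 (edgeR adjusted p = 0.406). CLDN1 passed downward without replicate 2 and with GC correction (edgeR adjusted p = 9.04e-06 and 0.0252). Without replicate 2, 7 members passed upward and 1 downward, and with GC correction 3 passed upward and 1 downward. Basal markers had 1 of 17 higher and 3 lower at an unadjusted p under 0.05, with TP63, the basal transcription factor, at 0.44 (edgeR adjusted p = 0.566) and MME at −0.39 (0.382), and luminal markers had 0 of 9 in either direction. Without replicate 2, 1 basal marker passed in each direction, and with GC correction 2 passed downward; 0 luminal markers passed in either fit. The labelled cell type was compared with marker levels in the 6 libraries. The basal keratins KRT5 and KRT14 were at 1966 to 3175 and 35.4 to 84.6 CPM, and KRT6A was at 1247 to 2276 CPM. Luminal keratins differed, with KRT7 at 978 to 1530 CPM and KRT19 at no more than 0.168 CPM. The myoepithelial marker CNN1 reached at most 0.0594 CPM. Other members of its list were present, with ACTA2 at 9.31 to 13.27, TAGLN at 2.72 to 10.98 and MYLK at 3.44 to 9.23 CPM. CLDN3 and GRHL2 of the junction list had no read. The endothelial genes CLDN5 and TIE1 had no read. Other endothelial markers were present, with ENG at 12.9 to 24.7 CPM, TEK at 1.14 to 1.78 CPM and KDR at 0.635 to 1.26 CPM. All 4 endothelial markers tested had negative log2 fold changes, against 52.1% of all genes. KDR had −0.58 (unadjusted p = 0.0304, edgeR adjusted p = 0.639), and 0 endothelial markers passed without replicate 2 or with GC correction. Their median was −0.16, and 0.05 without replicate 2, and the summed level of the 10 markers matched was 19.3 to 23.1 CPM in shG9a_1 and 15.3 to 26.9 CPM in shG9a_4.

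Growth factor and other groups followed in smaller lists written after values had been seen. Of 10 ligands of the EGF receptor family tested, 3 were lower at an unadjusted p under 0.05 and 0 higher. Epiregulin, EREG, was at 285, 239 and 216 CPM in shG9a_1 and at 183, 187 and 143 CPM in shG9a_4, without overlap (log2 fold change −0.55, edgeR adjusted p = 0.172), and epigen, EPGN, had −0.50 (0.210). Without replicate 2 and with GC correction, 2 of the ligands passed downward. Of 16 microtubule-associated proteins tested 5 were lower and 0 higher at an unadjusted p under 0.05, with MAP2 and MAP1B among the lower ones. The median of this list was −0.23, and −0.11 without replicate 2, where 2 passed downward, as with GC correction. Of 23 genes reported as YAP and TEAD targets 8 were lower and 0 higher at an unadjusted p under 0.05, with a median of −0.15; IGFBP3, which binds insulin-like growth factors, had −0.66 (0.382) and tissue factor, F3, −0.34 (0.385). Without replicate 2, 9 of these passed downward, and with GC correction 5 did. CCN1 is in this list and in the matrix list.

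Genes reported as MYC-repressed had 8 of 37 tested lower and 1 higher at an unadjusted p under 0.05, with a median of −0.14. Pair medians were −0.05, −0.19 and −0.12, and the median without replicate 2 was −0.07. The cyclin-dependent kinase inhibitor CDKN1A was at 392, 332 and 311 CPM in shG9a_1 and at 315, 255 and 275 CPM in shG9a_4 (log2 fold change −0.31, edgeR adjusted p = 0.382), with an overlap of the groups. Without replicate 2, 6 members passed downward and 1 upward, and with GC correction 1 passed downward. Genes reported as MYC-activated had 1 of 40 higher and 0 lower at an unadjusted p under 0.05, with a median of 0.05; 2 passed upward without replicate 2 and 0 with GC correction. Of 30 p53 targets 4 were lower and 0 higher at an unadjusted p under 0.05. CDKN1A is 1 of these 4 and is also in the MYC-repressed list. TP53I3 was at 88.7, 93.0 and 81.4 CPM in shG9a_1 and at 67.1, 70.5 and 63.1 CPM in shG9a_4, without overlap (−0.41, edgeR adjusted p = 0.210). Without replicate 2, 4 p53 targets passed downward, and with GC correction 0 did. Interferon-stimulated genes had 8 of 46 lower and 0 higher at an unadjusted p under 0.05, with a median of −0.11. OASL was the member of smallest p (−0.56, edgeR adjusted p = 0.390). Without replicate 2 the median of the interferon list was −0.17 and 11 members passed downward, and with GC correction 1 did.

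Some groups split by pair. Replication-dependent histone genes had pair medians of 0.47, −0.39 and 0.06 over 43 tested genes, 1 of which was higher at an unadjusted p under 0.05. Without replicate 2, 30 of them passed upward, against 3.82% of all genes, and with GC correction 0 passed in edgeR. The 15 mitochondrially encoded genes had pair medians of −0.30, −0.04 and 0.60, and 0 had an unadjusted p under 0.05; 2 passed upward without replicate 2 and 0 with GC correction. Of 54 genes of G2/M and mitosis 48 were higher in shG9a_4, against 47.9% of all genes, with a median of 0.09. However, 0 of them had an unadjusted p under 0.05 and the median in pair n3 was −0.04. Without replicate 2 the median was 0.03 and 1 passed upward, and with GC correction 0 did. Of 41 genes of the ATF4 and amino acid response 3 were higher and 1 was lower at an unadjusted p under 0.05; 4 passed upward and 1 downward without replicate 2, and 1 upward with GC correction.

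**Figure D5:**
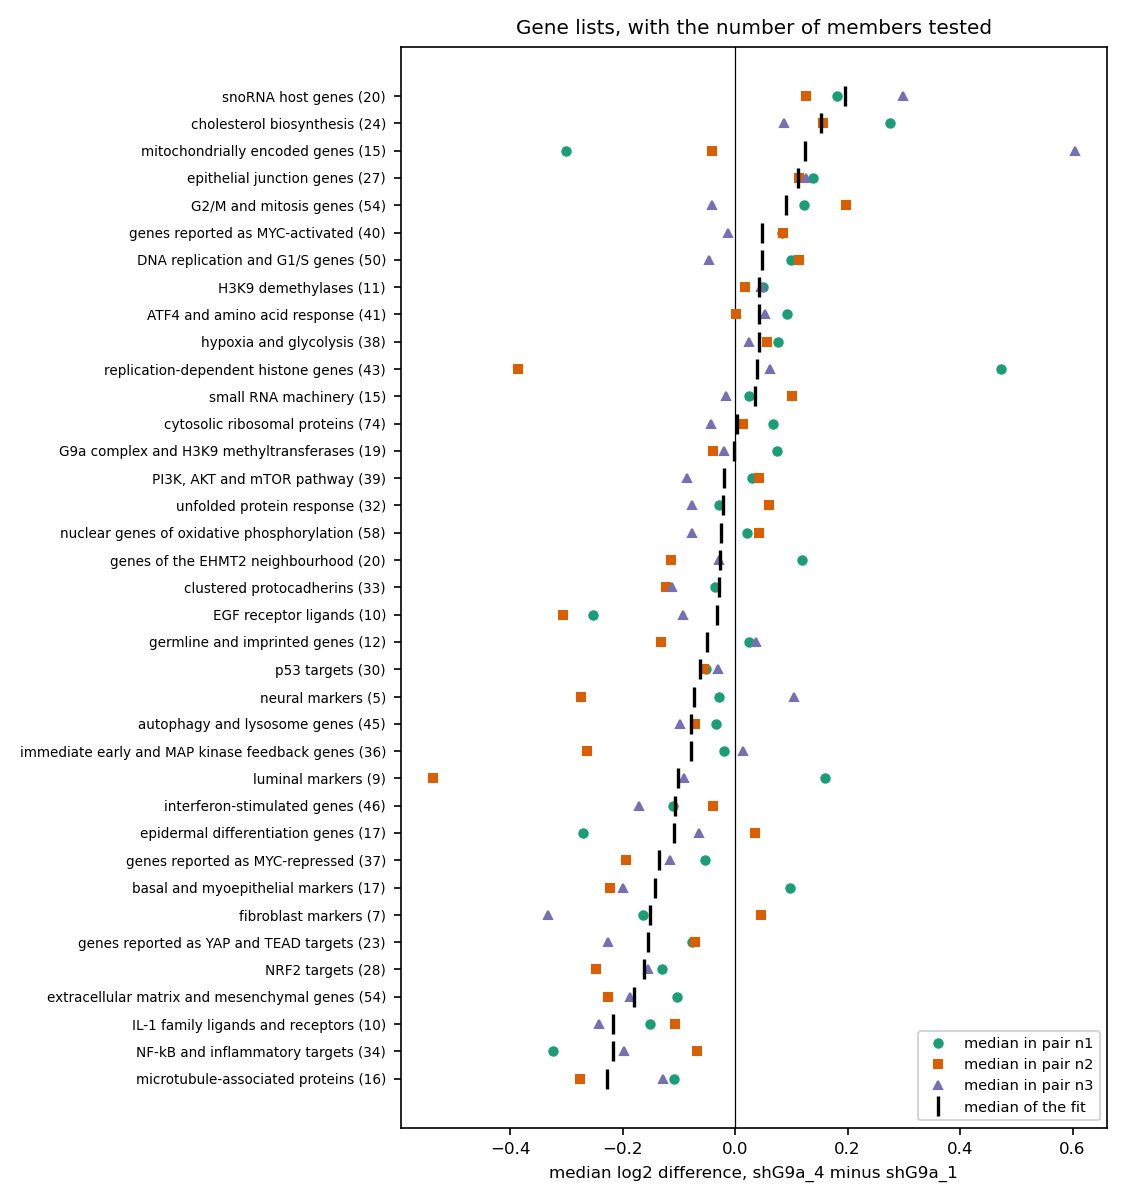
Median log2 difference of shG9a_4 minus shG9a_1 over the tested members of gene lists with at least 5 of them, in each pair (coloured symbols) and in the fit (black bars), with the number of members tested in brackets. For NF-kB, NRF2 and matrix genes all 3 pairs lie below 0 and for cholesterol synthesis all 3 above, while for histone genes pair n1 lies at 0.47 and pair n2 at −0.39.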

How the data were processed

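The authors deposited whole-number counts of reads per gene and library, per the file headers in the layout of STAR, which counts uniquely placed reads; GRCh37, hg19, DESeq, R 3.3.1, edgeR 3.14.0 and STAR 2.5.2a are listed, without role or order, per the submitters' processing notes. The reverse-strand column was taken, which held 94.7 to 95.1% of stranded reads. Reads without a gene (12.2 to 15.4% no feature, 2.49 to 2.68% ambiguous, 4.57 to 5.49% multimapped, 2.75 to 4.31% unmapped) stayed out of library sizes and tests. Of 60308 IDs, a name table gave symbols to 55277 and GENCODE 29 to 421; 99.0% of reads lay on named IDs, and 1274 of 1285 list entries matched. GENCODE 29 also gave the GC content of the longest transcript, for 98.5% of genes tested, and no coordinates.

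The 6 libraries were fitted with edgeR 4.0.16 in R 4.3.3: filterByExpr, TMM scaling, a mean per hairpin and the replicate number as a block, leaving 2 residual degrees of freedom, two-sided. The block follows from comparing within replicate numbers. Deviations from group means correlated at 0.194, 0.185 and 0.438 for same-numbered libraries and at −0.346 to 0.175 for the others, the highest being shG9a_1 n1 with shG9a_4 n2. No label ties a number to a shared day or batch, so the pairing rests on these values alone. Replicates are cultures that the design text calls biological. No 2 libraries of a group were duplicates (chi-square per degree of freedom of at least 32.4). Within-pair differences used TMM-scaled log2 CPM with a prior count of 2. The GC correction took offsets from a loess of each library's log2 deviation on GC (span 0.5). The fits with the block, without it and with GC correction were run on simulated counts, and the fit without replicate 2 was not. Such runs check the calculation, not how well a fit suits these data.

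Named were EHMT2, EHMT1, WIZ, ZNF644, MYC and PIK3CA, the genes past the threshold with at least 1 CPM and the same direction in 3 pairs, genes of smallest p up to 10 per direction, and up to 4 members of smallest p per list described. Markers given as low or absent, and those given for the labelled cell type, were picked after values were seen. CLDN1 was named besides, as the lower member of its list. The comparison and the lists were chosen with earlier results of these data known; 7 further lists, and which lists have members named, were chosen after values were seen. Alternatives were the fit without the block, all 9 libraries with and without it, RLE scaling, DESeq2 1.42.0, limma voom 3.58.1, a likelihood ratio test, filters, unstranded counts, each replicate number left out and the GC correction. Some results, 1 gene past the threshold among them, are not reported here. The authors' own tables of each hairpin against shSCR were not used.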

Additional observations from a re-analysis of the deposited data

How the results depend on the processing

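The number of genes past the threshold (6) depended on the fit, and the cause was not tested. It was 0 without the replicate block (680 genes at an unadjusted p under 0.05), 0 with all 9 libraries and the block (1592), 0 with all 9 libraries and no block (731, a fit added after the data were seen) and 0 with a filter of 1 CPM in 3 libraries (974), all by edgeR. It was 10 with RLE scaling, 5 with voom, 10 with unstranded counts, 83 with DESeq2 (15 higher, 68 lower), 111 with the likelihood ratio test (17 higher, 94 lower), 269 with no filter (60 higher, 209 lower) and 258 with the replicate block and GC correction (76 higher, 182 lower; added after the data were seen). Leaving out 1 replicate number gave 0 to 1315: 95 without replicate 1 (8 higher, 87 lower), 1315 without replicate 2 (675 higher, 640 lower) and 0 without replicate 3. All 6 genes were shared with the sets of RLE, DESeq2, the likelihood ratio test, no filter, unstranded counts, GC correction and the fits without replicates 1 and 2, and 5 with that of voom, where KRT34 missed the threshold.

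Over the 15 fits, log2 fold changes ran from −1.07 to −0.89 for HMOX1, −0.91 to −0.76 for MAP2, −0.93 to −0.81 for MAP1B, −1.65 to −1.44 for KRT34 and 0.67 to 0.74 for MIR205HG, with adjusted p of up to 1.00 in the fits that called 0 genes. EHMT2 passed with DESeq2 (0.59, adjusted p = 0.0118), the likelihood ratio test (0.60, 0.0258), no filter (0.60, 2.19e-05) and GC correction (0.65, 0.00177). It was 0.44 to 0.77 with 1 replicate number left out, and passed only without replicate 2 (edgeR adjusted p = 6.22e-11). With 1 replicate number left out, log2 fold changes crossed 0 for EHMT1 (−0.14 without replicate 1 to 0.12 without replicate 2), WIZ (−0.42 to 0.16, likewise), MYC (−0.095 to 0.13, likewise) and PIK3CA (−0.054 without replicate 2 to 0.0026 without replicate 1). MYC also turned without the block (0.0044), with all 9 libraries and no block (0.0069) and with GC correction (0.0041). Of 364 values of the 26 named genes over 14 alternatives, 235 kept their direction and side of the threshold. Of 588 list medians 17 moved by more than the SD between pairs. The main fit had 2 residual degrees of freedom, and 1 when a number was left out, which limits how well the spread of single genes is known.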
